A study of Mus musculus with 38 samples.

Results

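The data on 5 genes of the helix-loop-helix family are described here across 5 kinds of murine MLL leukaemia and normal marrow. They are the inhibitors Id1, Id2 and Id3, and Tcf3 and Tcf12, which encode E proteins. Taken as members were all probe sets of the deposited table annotated to exactly 1 of these symbols, 13 of the 45101 probe sets on the array, standing for 5 of the 18194 genes it names. They comprised 1 probe set for Id1, 3 for Id2, 1 for Id3, 3 for Tcf3 and 5 for Tcf12, and all 13 were among the 29004 that passed the filter on low values. Leukaemia had been started with a retrovirus carrying MLL-AF1p (9 mice), MLL-AF10 (8), MLL-GAS7 (5), MLL-AF9 (5) or MLL-ENL (7), put into marrow progenitors that express c-kit and transplanted into lethally irradiated syngeneic C57BL/6 recipients of either sex. The 4 normal samples were marrow of wild type C57BL/6 mice of either sex. Ages were not given, the fusion was carried by the virus rather than by the MLL locus, and the normal mice had neither virus, irradiation nor transplant. Whole marrow was measured, so each leukaemic sample also held whatever normal cells the recipient still had. Each mouse gave 1 array.

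E proteins bind DNA as dimers at a short sequence called the E box and switch on genes of lymphocyte development, alone or with a tissue-restricted partner. Id proteins have the dimer interface but lack the basic region that touches DNA, so an Id protein bound to an E protein keeps it off its sites. In marrow, Tcf3 (E12 and E47) and Tcf12 (HEB) are needed for early B and T lymphocytes, Id2 for natural killer and dendritic cells, and Id1 is found in myeloid progenitors. Id genes are themselves switched on by bone morphogenetic protein (BMP) signals.

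Promoter windows of Id3, Tcf3 and Id2 are given from RefSeq (build GRCm38.p6), from 250 bases before to 50 after a listed start, 5′ to 3′ on the gene's strand. For Id3 and Id2 that start is the annotated 5′ end of the gene. The Tcf3 window lies inside the gene, whose 5′ end is annotated at base 80433976. Capitals mark E boxes, CANNTG, which reads the same on both strands.
Id3 (chr4:136143572-136143871, strand plus): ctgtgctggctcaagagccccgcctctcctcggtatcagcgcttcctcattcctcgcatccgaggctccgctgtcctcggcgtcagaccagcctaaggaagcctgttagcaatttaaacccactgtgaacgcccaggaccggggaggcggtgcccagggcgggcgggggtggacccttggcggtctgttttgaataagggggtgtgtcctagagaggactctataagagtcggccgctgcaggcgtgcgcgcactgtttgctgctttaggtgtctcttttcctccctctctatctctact
Tcf3 (chr10:80433586-80433885, strand minus): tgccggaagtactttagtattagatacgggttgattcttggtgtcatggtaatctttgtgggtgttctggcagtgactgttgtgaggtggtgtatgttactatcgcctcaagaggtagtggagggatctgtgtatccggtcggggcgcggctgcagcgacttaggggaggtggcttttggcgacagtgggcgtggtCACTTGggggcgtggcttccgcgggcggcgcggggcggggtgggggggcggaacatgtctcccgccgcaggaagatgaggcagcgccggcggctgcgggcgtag
Id2 (chr12:25096043-25096342, strand minus): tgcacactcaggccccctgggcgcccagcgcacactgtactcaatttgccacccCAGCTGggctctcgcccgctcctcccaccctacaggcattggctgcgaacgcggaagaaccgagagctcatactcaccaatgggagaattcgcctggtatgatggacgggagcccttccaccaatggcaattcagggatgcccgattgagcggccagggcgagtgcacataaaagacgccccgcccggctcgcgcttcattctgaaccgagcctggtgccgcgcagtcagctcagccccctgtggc
The Id3 window held no CANNTG, the Tcf3 window held CACTTG with its first base 54 bases upstream of the start, and the Id2 window held CAGCTG at 196 bases upstream. CANNTG was present in 72.3% of all 32851 windows of the same length. The form CACCTG or CAGGTG, which is 1 kind of CANNTG on either strand and was found in 20.2% of all windows, was in none of these 3. GGCGCC, a sequence bound by SMAD proteins of the BMP pathway that reads the same on both strands, was in the Id2 window at 231 bases upstream and in 11.9% of all windows. CCAAT, read on either strand, occurred at 3 places in the Id2 window and in 37.4% of all windows. None of these matches in the Id2 window overlapped another. The RefSeq windows matched Id2, Id3 and Tcf3 once and Tcf12 3 times, and held no entry for Id1.

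Values below are deposited intensities, a linear brightness that the authors had brought to a trimmed mean of 500 per array. Differences are on the log2(intensity + 46.1) scale after each array was shifted to 1 common median, which understates changes of dim probe sets, and they were called at a limma adjusted p (Benjamini-Hochberg over all 29004 probe sets) under 0.05. With this shift the median difference of all probe sets between leukaemia and normal was 0.14, against 0.01 for the values as deposited. The normal arrays differed from the leukaemic ones in general signs. The log2 ratio of 3' to 5' actin signal ran from 0.15 to 0.65 in leukaemias and from 0.073 to 0.22 in normal samples, and 18S signal ran from 6.98 to 11.1 in leukaemias and from 6.65 to 7.63 in normal samples (log2). The values also divided the arrays into a set of 16, all leukaemic, and a set of 22 with 18 leukaemias and all 4 normal samples. The labels do not name these sets. Exactly this division came from 4 of 111 probe sets that divided the arrays sharply, and the next most frequent division from 3. What part RNA quality had in the results was not tested.

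Against normal marrow, Id3 and Tcf3 fell and Id1 rose, while none of the Id2 or Tcf12 probe sets passed the test. Of the 13 member probe sets 1 rose and 4 fell. Over all probe sets 36.9% were called, 24.9% higher and 12.1% lower, so the number of members called was near the background. Of all probe sets called, 67.3% were higher in leukaemia, against 53.6% for values as deposited and 59.1% with quantile normalization. The median difference of the 13 members was -0.07. Each cohort called 4 or 5 members. MLL-AF1p had 1 member higher and 4 lower, with 31.9% of all probe sets called (20.6% higher, 11.3% lower). MLL-AF10 had 0 higher and 4 lower, against 32.7% (21.9% higher, 10.8% lower). For MLL-GAS7 the members were 1 higher and 4 lower, against 22.6% (13.3% higher, 9.33% lower). MLL-AF9 showed 1 higher and 3 lower, against 27.7% (18.7% higher, 9.02% lower), and MLL-ENL 1 higher and 4 lower, against 35.4% (25.1% higher, 10.3% lower). These 5 comparisons share the same 4 normal samples.

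**Figure D1:**
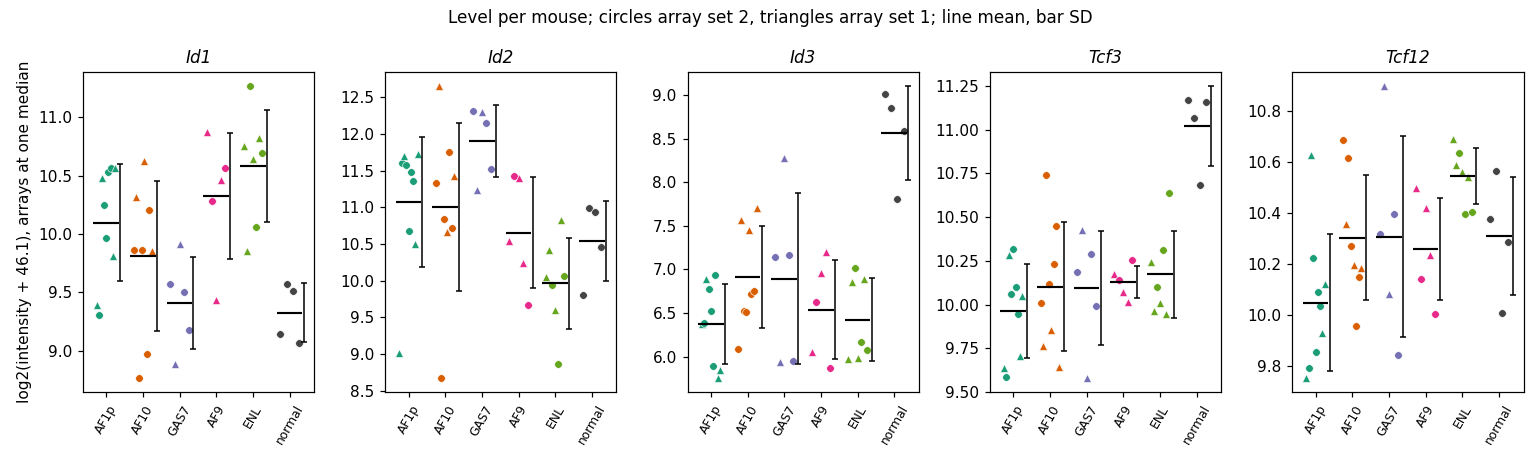
Level of the highest-reading probe set of each gene in every mouse, as log2(intensity + 46.1) on the y axis, by group on the x axis; circles are arrays of the set of 22, triangles those of the set of 16, lines are group means and bars SD. All normal samples lie above 33 of the 34 leukaemias for Id3 and for Tcf3, Id1 is highest in MLL-ENL (mean 10.59) and Id2 in MLL-GAS7 (mean 11.90).

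Id3, an inhibitor induced by antigen receptor signals in lymphocytes, fell in every cohort. Its intensity was 10.5, 19.5, 93.0, 100.5 and 341.2 in the MLL-GAS7 mice and 11.4, 16.1, 52.8, 80.6 and 96.4 in the MLL-AF9 mice. It ran from 6.7 to 60.2 (median 50.7) in MLL-AF1p, from 18.9 to 175.6 (median 55.0) in MLL-AF10 and from 10.1 to 73.4 (median 24.8) in MLL-ENL. The normal samples read 201.8, 392.2, 424.9 and 506.6. On the shifted scale 33 of 34 leukaemias lay below all 4 normal samples, and the exception was MLL-GAS7_407 at 341.2. Id3 fell by 1.93 ± 0.30 (log2, SE), or 3.82-fold, with a limma adjusted p of 2.91e-06. The difference from normal was -2.19 for MLL-AF1p, -2.14 for MLL-ENL, -2.02 for MLL-AF9, -1.67 for MLL-GAS7 and -1.65 for MLL-AF10 (limma adjusted p from 3.76e-06 to 0.00124). Only 2 of 34 leukaemias read above their own array's median for Id3, against 4 of 4 normal samples, so the leukaemic level was near the bottom of the range. The filter on low values asked for 4 such arrays, so Id3 was tested only through the normal samples, where it is high. With no filter the call was kept. With a pseudocount of 16 the fall was 2.42 and with 100 it was 1.48. The next step down the order of group means after normal (8.56) was to MLL-AF10 (6.92), and none of the differences between neighbouring cohorts passed the test (limma adjusted p from 0.776 to 0.986).

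Markers of lymphocytes and of several other marrow lineages fell beside Id3, where 12.1% of all probe sets were called lower. Of 9 listed B cell markers 8 were tested and all 8 were lower in leukaemia, and their summed intensity ran from 1342 to 6192 in the 34 leukaemias and from 10867 to 22907 in the 4 normal samples. All 9 T and NK cell markers were lower too, with sums of 818 to 5263 in leukaemias and 5056 to 7650 in normal samples. Markers called lower were also 6 of 7 tested for erythroid cells, 4 of 5 for megakaryocytes, 6 of 8 for resident macrophages, 5 of 7 for neutrophils, 3 of 5 for plasmacytoid dendritic cells and 4 of 8 for endothelium and stroma. The filter on low values asked for 4 arrays, so a marker high only in the 4 normal samples could be tested through them alone. How many markers were so tested was not counted. In the other direction, 1 resident macrophage marker, Adgre1 (1.27, limma adjusted p = 3.85e-08), and 1 of endothelium and stroma, Pecam1 (0.87, adjusted p = 0.0106), were higher. All 6 tested monocyte markers were higher, and of 4 progenitor markers 1 was higher and 0 lower. Over all probe sets 24.9% were called higher. In whole marrow, fewer cells of a type and less RNA per cell cannot be told apart. The highest sum of B cell markers among leukaemias was in MLL-GAS7, whose 5 mice ran from 2289 to 6192. The part of these cells in the fall of Id3 was not tested.

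Id1, an inhibitor that BMP signals induce, moved the other way. Its intensities were 392.3, 565.9, 692.0, 706.1 and 1157.4 in MLL-GAS7 and 659.4, 1199.7, 1329.3, 1448.2 and 1705.6 in MLL-AF9, against 562.0, 567.7, 731.4 and 765.1 in normal marrow. MLL-AF1p ran from 685.9 to 1357.5 (median 1126.6), MLL-AF10 from 366.2 to 1694.4 (median 930.1) and MLL-ENL from 855.4 to 2225.7 (median 1528.6). Of 34 leukaemias 25 lay above all 4 normal samples: 7 of 7 MLL-ENL mice, 4 of 5 with MLL-AF9, 7 of 9 with MLL-AF1p, 6 of 8 with MLL-AF10 and 1 of 5 with MLL-GAS7. Over the 5 cohorts Id1 rose by 0.72 ± 0.26 (SE), or 1.64-fold (limma adjusted p = 0.0273). It rose in MLL-ENL by 1.26 ± 0.31 (adjusted p = 0.00134), in MLL-AF9 by 0.997 ± 0.33 (adjusted p = 0.0205) and in MLL-AF1p by 0.77 ± 0.29 (adjusted p = 0.042), all by limma. The differences were 0.48 ± 0.30 in MLL-AF10 (adjusted p = 0.228) and 0.08 ± 0.33 in MLL-GAS7 (adjusted p = 0.895). The rise over all cohorts lost its call for values as deposited (0.59, adjusted p = 0.066) and without normal mouse 1 (0.66, adjusted p = 0.0943) or 4 (0.63, adjusted p = 0.111). Within the 22 arrays that hold the normal samples it was 0.71 (adjusted p = 0.0284). In MLL-AF9 the call was lost without MLL-AF9_301 (0.86, adjusted p = 0.0642) or normal mouse 1 (0.94, adjusted p = 0.0569) or 4 (0.91, adjusted p = 0.0663). In MLL-AF1p it was lost in 8 of 38 fits that each left out 1 array, for values as deposited (0.66, adjusted p = 0.078), with quantile normalization (0.70, adjusted p = 0.0545), with no filter on low values (0.77, adjusted p = 0.0584) and with array set as a term (0.73, adjusted p = 0.0638).

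Id2, an inhibitor needed for natural killer and dendritic cells, was read by 3 probe sets. Over the 5 cohorts they differed from normal by 0.38 ± 0.41, 0.58 ± 0.36 and 0.46 ± 0.32 (1435176_a_at, 1422537_a_at and 1453596_at, SE), with limma adjusted p of 0.513, 0.211 and 0.273. Their deviations from cohort means went together over the 34 leukaemias, with Pearson r from 0.73 to 0.87 between pairs of probe sets. The only Id2 call against normal in any cohort was 1422537_a_at in MLL-GAS7, which rose by 1.45 ± 0.45 or 2.74-fold (limma adjusted p = 0.0176). Its 5 MLL-GAS7 mice read 1011.8, 1749.0, 2776.5, 3458.5 and 4692.4, against 745.8, 782.5, 866.8 and 1219.6 in normal marrow, so that 1 MLL-GAS7 mouse lay within the normal range in intensity. On the shifted scale all 5 lay above the normal samples, by a margin as small as 10.158 against 10.156. The call was lost without normal mouse 4 (1.35, adjusted p = 0.058) and when 5 arrays whose hybridisation controls read brightest were left out (1.52, adjusted p = 0.0537). The probe set with the highest mean, 1435176_a_at, differed by 1.36 ± 0.52 in MLL-GAS7 (adjusted p = 0.0565) and by -0.58 ± 0.49 in MLL-ENL (adjusted p = 0.389). In MLL-GAS7 it gained a call with a pseudocount of 100 (adjusted p = 0.0456), with 1 probe set per gene (0.0495) and with array weights (0.0229). It did so too in 4 of 38 fits that each left out 1 array, and the mean of the Id2 probe sets was called (1.20, adjusted p = 0.0343).

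Tcf3, the gene of E12 and E47, fell on all 3 of its probe sets. Probe set 1426297_at read 911.5, 1030.3, 1105.7, 1225.5 and 1227.1 in MLL-GAS7 and 959.5, 1035.4, 1052.6, 1086.2 and 1154.8 in MLL-AF9, against 1779.2, 2140.8, 2419.6 and 2561.2 in normal marrow. It ran from 808.4 to 1263.2 (median 956.6) in MLL-AF1p, from 806.3 to 1573.0 (median 1038) in MLL-AF10 and from 839.4 to 1468.7 (median 966.3) in MLL-ENL. No leukaemia reached the lowest normal intensity, and on the shifted scale 33 of 34 lay below all normal samples. The fall was 0.93 ± 0.15 (SE), or 1.90-fold (limma adjusted p = 8.59e-06), and the 5 cohorts lay close together, from -1.05 in MLL-AF1p to -0.85 in MLL-ENL.

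The other Tcf3 probe sets gave larger differences. With 1427764_a_at the leukaemias ran from 101.1 to 560.3 (median 309.5), against 953.6, 1128.5, 1420.3 and 1721.3 in normal marrow, with no overlap. Tcf3 fell there by 1.80 ± 0.27 or 3.49-fold (limma adjusted p = 1.09e-06), in each cohort by 1.69 to 1.91. With 1452542_x_at the leukaemias ran from 7.4 to 207.3 (median 25.7), against 221.2, 241.2, 259.3 and 305.2 in normal marrow. The fall was 1.51 ± 0.39 (adjusted p = 0.00212), and it was called in each cohort except MLL-AF9 (-1.22 ± 0.49, adjusted p = 0.0598). Only 5 of 34 leukaemias read above their array's median on this probe set. An x in a probe set's name marks probes that may also read other transcripts.

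The array sets bear on Tcf3. With array set as a term, its 3 probe sets were higher in the set of 22 by 0.25 ± 0.09, 0.64 ± 0.14 and 1.08 ± 0.19 (SE) in the order above. On 1452542_x_at the 18 leukaemias of that set ran from 8.8 to 207.3 (median 87.6) and the 16 of the other set from 7.4 to 111.2 (median 14.95). Within the set of 22 arrays the differences from normal were -0.82 (limma adjusted p = 0.000175), -1.49 (adjusted p = 6.12e-06) and -0.999 (adjusted p = 0.0284). There 1452542_x_at kept its call in MLL-ENL and lost it in MLL-AF1p (adjusted p = 0.0581), MLL-AF10 (0.0523) and MLL-GAS7 (0.16), while the other probe sets stayed called in all 5 cohorts. In MLL-GAS7 its call was also lost with array weights (-1.23, adjusted p = 0.0547), without the 5 arrays whose hybridisation controls read brightest (-1.20, adjusted p = 0.153), and without MLL-GAS7_406 (-1.35, adjusted p = 0.0616), MLL-GAS7_407 (-1.23, adjusted p = 0.0717) or normal mouse 3 (-1.43, adjusted p = 0.06). Id3 fell by 2.07 within the set of 22.

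**Figure D2:**
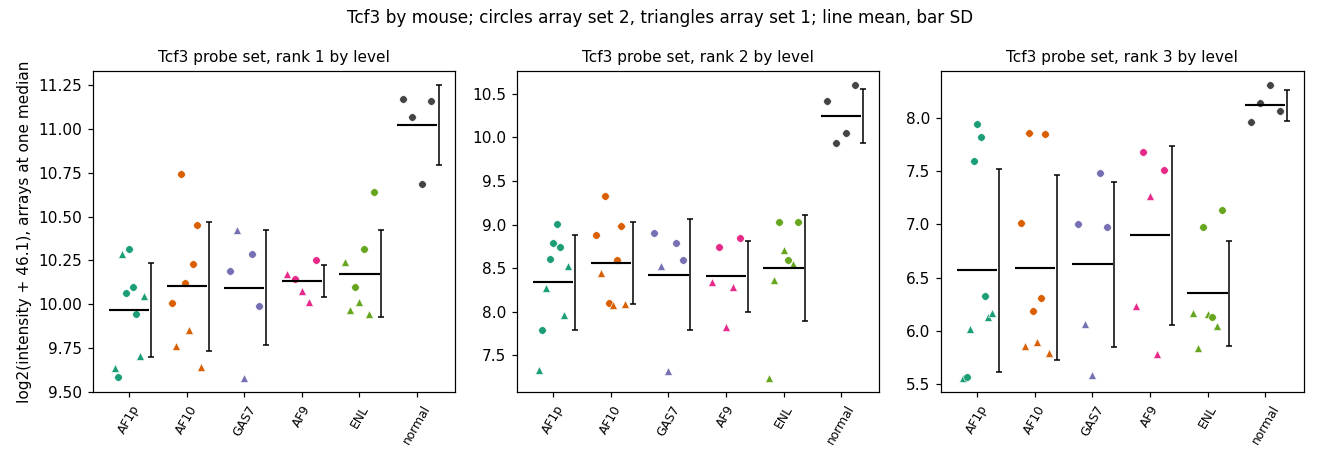
The 3 Tcf3 probe sets in every mouse, from the highest to the lowest mean level, as log2(intensity + 46.1) on the y axis, by group on the x axis; circles are arrays of the set of 22, triangles those of the set of 16, lines are means and bars SD. The normal samples are the highest group in each panel, and on the dimmest probe set the leukaemias of the set of 16 (median intensity 14.95) lie mostly below those of the set of 22 (87.6).

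Tcf12, the gene of the E protein HEB, did not pass the test on any of its 5 probe sets. The differences were -0.02 ± 0.14 (1427670_a_at, limma adjusted p = 0.943), -0.19 ± 0.18 (1421908_a_at, adjusted p = 0.425), -0.07 ± 0.27 (1439209_at, adjusted p = 0.869), 0.47 ± 0.21 (1439619_at, adjusted p = 0.0718) and -0.40 ± 0.29 (1446294_at, adjusted p = 0.297). On the brightest, 1427670_a_at, the leukaemias ran from 862.2 to 1716.1 (median 1235), against 1096.6, 1376.8, 1377.8 and 1495.8 in normal marrow, so the normal samples lay inside the leukaemic range. The probe sets did not read alike: over the 34 leukaemias their deviations from cohort means correlated with Pearson r between -0.21 and 0.51. On 1439619_at 20 of 34 leukaemias lay above all normal samples, and its call was made within the set of 22 arrays (0.54, adjusted p = 0.0311). No normal sample read above its array's median on this probe set, against 18 of 34 leukaemias. It therefore passed the filter on low values only through the leukaemias, where it is higher.

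**Figure D3:**
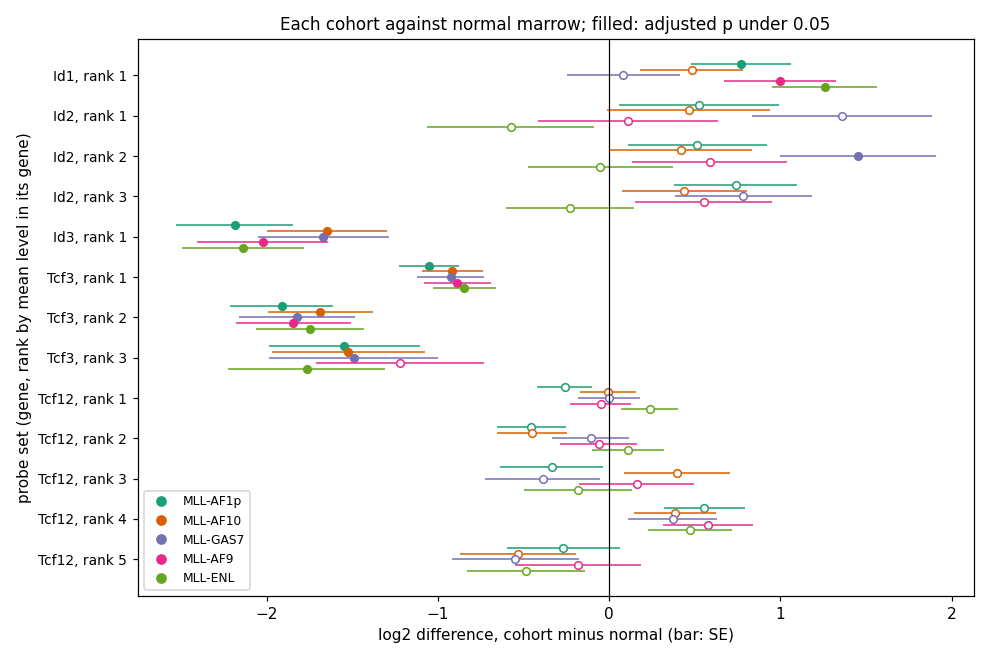
Log2 difference of each cohort minus normal marrow (x axis, bars SE) for the 13 probe sets (y axis, ranked by mean level within the gene); filled points passed an adjusted p under 0.05. Id3 and the first 2 Tcf3 probe sets lie to the left in all 5 cohorts, from -2.19 to -0.85, while the Tcf12 points lie around 0.

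Between the leukaemias, Id1 and Id2 passed tests of difference by fusion, in opposite directions in MLL-GAS7 and MLL-ENL, but each of these calls was lost under at least 1 other setting. An F test among the 5 cohorts called 2 of 13 member probe sets, Id1 (limma adjusted p = 0.04) and Id2 1435176_a_at (adjusted p = 0.049), where 6.28% of all probe sets were called. Both stand close to the threshold. The Id1 call was lost in 13 of 38 fits that each left out 1 array and the Id2 call in 30 of 38. The adjusted p of these fits ran from 0.0181 to 0.0832 for Id1 and from 0.01 to 0.0971 for Id2. The Id1 call was also lost for values as deposited (adjusted p = 0.0605), with quantile normalization (0.0729), with no filter (0.0584) and within the set of 22 arrays (0.125) or of 16 (0.568). The Id2 call was also lost with a pseudocount of 16 (adjusted p = 0.0679), with no filter (0.0707), for the mean of its probe sets (0.0684), within the set of 22 (0.117) or of 16 (0.516) and without the 5 bright-control arrays (0.156). Id3 (adjusted p = 0.468) and the 3 Tcf3 probe sets (0.814 to 0.951) were not called.

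Id2 read high in MLL-GAS7 and low in MLL-ENL. On 1435176_a_at the 5 MLL-GAS7 mice read 2187.8, 3074.6, 4556.6, 4974.8 and 6253.2, and the 7 MLL-ENL mice ran from 412.5 to 1585.5 (median 972.2), with no overlap between the cohorts. The other cohorts were wide: MLL-AF1p ran from 604.1 to 3540.9 (median 2666), MLL-AF10 from 341.3 to 6229.3 (median 2132), and MLL-AF9 read 756.7, 1126.2, 1345.2, 2696.5 and 2713.3. The normal samples read 914.6, 1554.9, 2016.6 and 2116.7, below all 5 MLL-GAS7 mice in intensity. MLL-GAS7 exceeded MLL-ENL by 1.94 ± 0.46 (3.83-fold, limma adjusted p = 0.00893) on this probe set, by 1.503 ± 0.40 (adjusted p = 0.0192) on 1422537_a_at and by 1.01 ± 0.35 (adjusted p = 0.0751) on 1453596_at. The 2 cohorts overlapped on 1422537_a_at, from 1011.8 to 4692.4 in MLL-GAS7 and from 300.7 to 1168.2 in MLL-ENL. They also overlapped on 1453596_at, from 228.2 to 822.0 and from 86.8 to 471.9. How many of all probe sets separate these 2 cohorts was not counted. Against the mean of the other 4 cohorts, MLL-ENL was lower by 1.19 ± 0.33 on 1435176_a_at (difference -1.19, adjusted p = 0.0373) and by 0.86 ± 0.25 on 1453596_at (difference -0.86, adjusted p = 0.0485). These were 2 of 13 members, where 3.83% of all probe sets were called in MLL-ENL, and 1.11% of all were called lower. MLL-GAS7 differed from the other 4 by 1.23 ± 0.38 on 1435176_a_at (adjusted p = 0.0615).

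The Id2 calls differed in how far they depended on single arrays. On 1435176_a_at the call of MLL-GAS7 against MLL-ENL was kept without each array in turn (limma adjusted p at most 0.0285). When 5 arrays whose hybridisation controls read brightest were left out, MLL-GAS7_407 and MLL-GAS7_410 among them, the adjusted p of MLL-GAS7 against MLL-ENL was 0.0706 on 1435176_a_at and 0.127 on 1422537_a_at, with differences of 1.93 and 1.43. On 1422537_a_at it was lost without MLL-GAS7_407 (1.33, adjusted p = 0.0741) or MLL-GAS7_408 (1.37, adjusted p = 0.0648). On 1435176_a_at the difference was 2.37 (adjusted p = 0.0357) within the set of 22 arrays and 1.54 (adjusted p = 0.341) within the set of 16, where MLL-GAS7 has 2 mice. For MLL-ENL against the other 4, leaving out 1 array lost the call in 8 of 38 fits on 1435176_a_at (adjusted p from 0.0103 to 0.0996) and in 24 of 38 on 1453596_at (0.0248 to 0.121). On these 2 probe sets in turn it was also lost with no filter (adjusted p = 0.0558 and 0.072), within the set of 22 arrays (-1.51 and -1.21, adjusted p = 0.132 and 0.152), within the set of 16 (-0.98 and -0.60, adjusted p = 0.354 and 0.385) and without the 5 bright-control arrays (adjusted p = 0.0623 and 0.0664). On 1453596_at a pseudocount of 16 ended it too (adjusted p = 0.0542).

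Id1 ran the opposite way. MLL-GAS7 (mean 9.41 ± 0.39, log2, SD, n = 5) had the lowest mean of the 5 cohorts and MLL-ENL (10.59 ± 0.48, n = 7) the highest. MLL-GAS7 was lower than MLL-ENL by 1.18 ± 0.29 on the log2 scale (difference -1.18, 2.26-fold, limma adjusted p = 0.0115), and this call was kept without each array in turn (adjusted p at most 0.0365). Within the set of 22 arrays the difference was -1.26 (adjusted p = 0.0711) and within the set of 16 it was -1.12 (adjusted p = 0.296). Against the other 4 cohorts the differences were -0.79 ± 0.24 in MLL-GAS7 (adjusted p = 0.053) and 0.68 ± 0.21 in MLL-ENL (adjusted p = 0.0576). No 2 neighbours in the order MLL-ENL, MLL-AF9, MLL-AF1p, MLL-AF10, MLL-GAS7 and normal differed (adjusted p from 0.555 to 0.895).

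In all, 10 pairs of cohorts were compared. MLL-GAS7 against MLL-ENL called 3 of 13 members, 2 higher and 1 lower (background 6.08%, with 1.51% higher and 4.57% lower), and MLL-AF1p against MLL-ENL called 1 of 13 (background 2.82%, with 2.08% lower), Tcf12 on 1427670_a_at, by -0.50 ± 0.13 (limma adjusted p = 0.0345). On that probe set MLL-AF1p ran from 862.2 to 1374.4 (median 980.5) and MLL-ENL from 1241.3 to 1556.2 (median 1295), which overlap. The other 8 pairs called 0 of 13 members by limma. Their backgrounds were 0.0276% for MLL-AF1p against MLL-AF10, 2.98% for MLL-AF1p against MLL-GAS7, 0.962% for MLL-AF1p against MLL-AF9 and 1.90% for MLL-AF10 against MLL-GAS7. They were 0.486% for MLL-AF10 against MLL-AF9, 2.88% for MLL-AF10 against MLL-ENL, 0.693% for MLL-GAS7 against MLL-AF9 and 0.372% for MLL-AF9 against MLL-ENL. At an unadjusted p under 0.05 these 8 pairs had from 1 to 5 members. The Tcf12 call of MLL-AF1p against MLL-ENL was lost in 9 of 38 fits without 1 array (adjusted p from 0.0106 to 0.0746), within the set of 22 arrays (-0.48, adjusted p = 0.255) and within the set of 16 (-0.49, adjusted p = 0.395). It was also lost with quantile normalization (-0.36, adjusted p = 0.0618) and with no filter (adjusted p = 0.0535), and the mean of the Tcf12 probe sets differed by -0.18 (adjusted p = 0.522). Against the other 4 cohorts, limma called 0 of 13 members for MLL-AF1p (background 1.26%, 2 members at an unadjusted p under 0.05) and 0 for MLL-AF10 (0.445%, 2 members). It also called 0 for MLL-GAS7 (3.45%, 3 members) and 0 for MLL-AF9 (0.355%, 0 members).

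Some neutrophil markers differed between the same cohorts. The summed intensity of 7 neutrophil markers ran from 47654 to 168054 (median 99124) in MLL-GAS7 and from 10429 to 72976 (median 23708) in MLL-ENL, which overlap. Against the other 4 cohorts, 1 of the 7 was called higher in MLL-GAS7, Itgb2l (1.43, limma adjusted p = 0.02), and 2 were called lower in MLL-ENL, Itgb2l (-1.15, adjusted p = 0.0364) and the granule protease Mmp8 (-2.02, adjusted p = 0.00116). Mmp8 was called higher in MLL-AF1p (1.72, adjusted p = 0.0034), where the neutrophil sums ran from 20165 to 245602 (median 79513). Of all probe sets 3.45% were called in MLL-GAS7, 1.26% in MLL-AF1p and 3.83% in MLL-ENL, with 1.11% lower in MLL-ENL. In MLL-GAS7 single markers of other cells were higher too. They were 1 of 9 for T and NK cells, the NK cell receptor gene Klrd1 (1.10, adjusted p = 0.000854), 1 of 8 for resident macrophages, C1qb (1.20, adjusted p = 0.00821), 1 of 5 for plasmacytoid dendritic cells, Spib (0.82, adjusted p = 0.0244), and 2 of 8 for endothelium and stroma, Cxcl12 (1.19, adjusted p = 0.0404) and Adipoq (1.16, adjusted p = 0.0244). The progenitor receptor gene Flt3, 1 of 4 progenitor markers, was lower in MLL-ENL (-1.83, adjusted p = 0.00548). Sums of T and NK cell markers ran from 922 to 4062 in MLL-GAS7 and from 818 to 3075 in MLL-ENL. Sums of 6 monocyte markers overlapped as well, with medians of 60208 in MLL-GAS7 and 47713 in MLL-ENL. These marker genes were chosen for naming after their values were seen. The part of these cells in the Id2 difference was not tested.

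Among the members themselves, correlations across the 34 leukaemias were taken once cohort means were removed. Of 10 gene pairs, taken on the brightest probe set of each gene, none passed a permutation test adjusted over the 10 (lowest adjusted p = 0.119). Id2 and Id3 had Pearson r = 0.38 (permutation p = 0.0214, adjusted 0.119) and Spearman rho = 0.39 (permutation p = 0.0285, adjusted 0.211), and r was 0.45 without the 2 mice farthest from the median of Id2. Id3 and Tcf3 had r = -0.43 (permutation p = 0.0238, adjusted 0.119) and rho = -0.38 (permutation p = 0.0421, adjusted 0.211), with r = -0.28 without the 2 farthest mice. Within the array sets Id3 and Tcf3 had r = 0.04 over 18 leukaemias and -0.53 over 16, so the relation did not hold in both. Tcf3 and Tcf12 had r = 0.36 over all 34 (permutation p = 0.0655, adjusted 0.195) and rho = 0.24 (permutation p = 0.216, adjusted 0.458). Their r was 0.15 over those 18 and 0.93 over those 16. The values within the array sets were not tested.

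The genes most like each member over the same 34 deviations were taken by Pearson r among all named genes. For Id2 they were the slingshot phosphatase gene Ssh2 (0.88), the ubiquitin ligase gene Marchf1 (0.88) and the histone demethylase gene Kdm7a (0.87). For Id1 they were Cdyl2 (0.76), Cdc42ep3 (0.75) and Dennd2d (0.73), and for Id3 Asprv1 (0.70), the B cell surface gene Ms4a1, which encodes CD20 (0.68), and Rapgef5 (0.66). For Tcf3 they were the histone methyltransferase gene Setdb1 (0.82), the RNA-binding protein gene Tia1 (0.82) and the ubiquitin ligase gene Huwe1 (0.81), and for Tcf12 Trpm7 (0.80), Dctn6 (0.77) and Pcm1 (0.77). These values share arrays and array sets and are given as a description.

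Of the other genes of the 2 families, Id4 fell by 1.09 ± 0.29 (limma adjusted p = 0.00264) and the E protein gene Tcf4 differed by 0.64 ± 0.50 (adjusted p = 0.339). Among the tissue-restricted partners of E proteins 4 of 6 were tested. Tal1, needed for red cell and megakaryocyte development, fell by 5.60 ± 0.28 (48.5-fold, adjusted p = 7.25e-19), and its relative Lyl1 rose by 1.25 ± 0.14 (2.39-fold, adjusted p = 7.33e-09). Bhlha15 and Ascl2 differed by 0.17 and 0.07 (adjusted p = 0.47 and 0.896). The summed intensity of 7 erythroid markers ran from 583 to 1803 in leukaemias and from 64809 to 95524 in normal samples, and the part of these cells in the fall of Tal1 was not tested. The limit of the filter given for the markers may also apply to Tal1.

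Of 10 cofactors of E proteins and of the Tal1 complex 9 were tested, and 3 rose and 2 fell. Over all probe sets 24.9% were called higher and 12.1% lower. The median difference was -0.08 against 0.14 for all probe sets. The corepressor Cbfa2t3 rose by 0.68 ± 0.22 (limma adjusted p = 0.0125), its relative Cbfa2t2 by 0.48 ± 0.10 (adjusted p = 0.000272) and the bridging protein Lmo2 by 0.60 ± 0.15 (adjusted p = 0.00187). Gata1, the erythroid transcription factor, fell by 3.76 ± 0.28 (adjusted p = 1.01e-13) and the adaptor Ldb1 by 0.70 ± 0.19 (adjusted p = 0.00397). The coactivators Crebbp and Ep300 differed by -0.04 and -0.08 (adjusted p = 0.845 and 0.744). Set against the other 4 cohorts, Lmo2 was lower in MLL-GAS7 (-0.62, adjusted p = 0.00817), and Cbfa2t3 (-0.77, adjusted p = 0.00698) and Gata2 (-0.93, adjusted p = 0.0248) in MLL-AF1p.

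Lymphoid genes that E proteins activate were low in leukaemia. Of 12 listed genes 11 were tested, 0 rose and 9 fell, with a median difference of -2.65 against 0.14 for all probe sets. Genes high only in the 4 normal samples could pass the filter on low values through those samples alone, as with the markers above. Over all probe sets 24.9% were called higher and 12.1% lower. The recombinase gene Rag1 fell by 4.51 ± 0.23 (22.8-fold, limma adjusted p = 1.57e-18) and Cd79a, part of the B cell receptor, by 4.14 ± 0.30 (17.7-fold, adjusted p = 3.4e-14). The surrogate light chain gene Vpreb1 fell 10.04-fold (adjusted p = 4.14e-10) and Dntt, which adds bases at joined gene segments, 9.15-fold (adjusted p = 2.36e-10). In each cohort 9 of the 11 fell, with medians from -2.83 in MLL-AF9 to -2.22 in MLL-GAS7. Of all probe sets 9.02% (MLL-AF9) to 11.3% (MLL-AF1p) were called lower in a cohort. The list shares 5 of its 12 genes with the 9 B cell markers, which fell as given above, and the part of B cell number in these falls was not tested.

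**Figure D4:**
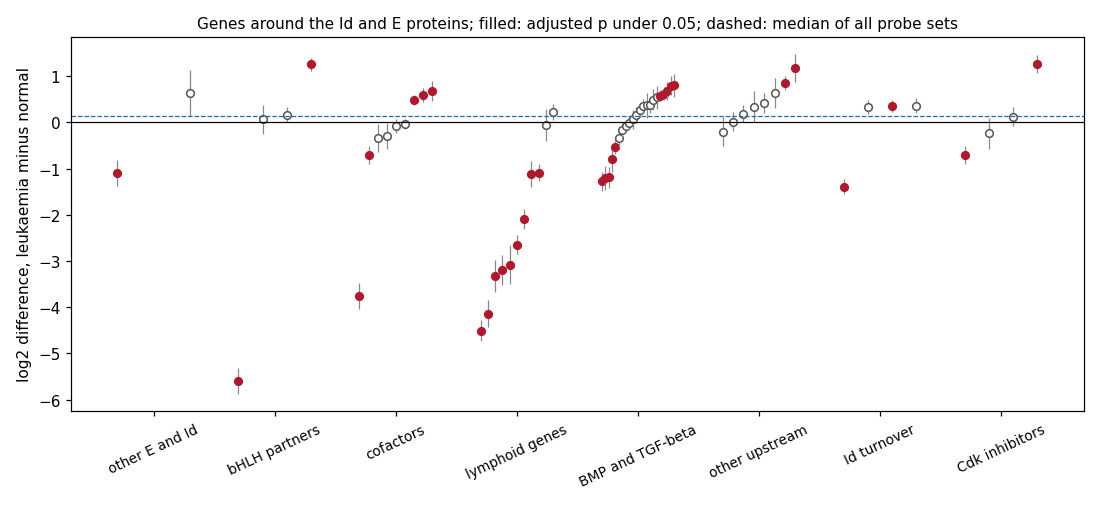
Log2 difference of leukaemia minus normal (y axis, bars SE) for each tested gene of the 8 lists around the Id and E proteins (x axis); filled points passed an adjusted p under 0.05 and the dashed line is the median of all probe sets, 0.14. The lymphoid genes lie lowest as a list (median -2.65), and Tal1 and Gata1 are the lowest of the partners and cofactors.

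Upstream of the Id genes the picture was mixed. Of 26 genes of the BMP and TGF-beta pathway 22 were tested, 5 rose and 5 fell, with a median of 0.22 against 0.14 for all probe sets. Over all probe sets 24.9% were called higher and 12.1% lower. The receptor Bmpr2 rose by 0.68 ± 0.19 (limma adjusted p = 0.00502), the decoy receptor Bambi by 0.80 ± 0.26 (adjusted p = 0.0126), the ligand Tgfb1 by 0.80 ± 0.20 (adjusted p = 0.00201) and the shared mediator Smad4 by 0.62 ± 0.13 (adjusted p = 0.000321). The co-receptor Eng fell by 1.27 ± 0.20 (adjusted p = 3.52e-06), the receptors Acvrl1 by 1.20 ± 0.26 (adjusted p = 0.000397) and Tgfbr2 by 1.19 ± 0.23 (adjusted p = 8.27e-05), and the ligand Bmp4 by 0.80 ± 0.26 (adjusted p = 0.0143). Set against the other 4 cohorts, Bambi was higher in MLL-ENL (0.97, adjusted p = 0.00621) and lower in MLL-GAS7 (-0.95, adjusted p = 0.0161). Bmpr2 was lower in MLL-ENL (-0.56, adjusted p = 0.0363) and in MLL-AF9 (-0.84, adjusted p = 0.0137) and higher in MLL-AF1p (0.63, adjusted p = 0.0144).

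Among 9 other regulators of Id genes 8 were tested, 2 rose and 0 fell, where 24.9% of all probe sets were called higher and 12.1% lower. The repressors Zeb2 (0.86 ± 0.15, limma adjusted p = 1.54e-05) and Zbtb16 (1.18 ± 0.30, adjusted p = 0.00219) rose. The growth response factor Egr1 differed by -0.20 from normal (adjusted p = 0.673) and was higher in MLL-ENL than in the other 4 cohorts (1.41 ± 0.26, adjusted p = 0.00133). All 4 genes listed for the turnover of Id proteins were tested. Fzr1, an activator of the anaphase-promoting complex, fell by 1.39 ± 0.17 (adjusted p = 2.38e-08), and Wdr48, which activates a deubiquitinase of Id proteins, rose by 0.36 ± 0.13 (adjusted p = 0.0224). The deubiquitinase Usp1 itself differed by 0.33 ± 0.16 (adjusted p = 0.0956).

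Cyclin-dependent kinase inhibitor genes, known to be activated by E proteins and held down by Id proteins, did not move together. Of 6 listed 4 were tested. Cdkn1a (p21) rose by 1.27 ± 0.20 (2.41-fold, limma adjusted p = 2.58e-06) and Cdkn1b (p27) fell by 0.70 ± 0.19 (adjusted p = 0.00425), while Cdkn1c and Cdkn2c differed by -0.24 and 0.13 (adjusted p = 0.623 and 0.661). Set against the other 4 cohorts, Cdkn1a was higher in MLL-ENL (1.03 ± 0.16, adjusted p = 0.000285) and lower in MLL-AF10 (-0.72, adjusted p = 0.0157) and MLL-AF1p (-0.56, adjusted p = 0.039). Cdkn2c was higher in MLL-AF10 (1.10, adjusted p = 5.39e-05) and MLL-AF1p (0.95, adjusted p = 0.000236) and lower in MLL-AF9 (-1.05, adjusted p = 0.00138) and MLL-ENL (-0.95, adjusted p = 0.000674).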

How the data were processed

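Whole marrow RNA of 38 mice was hybridised to 1-colour Affymetrix mouse arrays after biotin labelling, per the labels' protocols. The deposited values are linear intensities, 1 per probe set and array. The authors had scaled them so that the mean after trimming 2% at each end is 500 on every array, as the values show, and the sources used here name no software. Names came from GEO's platform annotation: 34958 probe sets carry 1 symbol, and the 932 with several were not named. The deposited intensities were taken to log2 after adding 46.1, their 25th percentile, and arrays were moved to 1 median. Probe sets brighter than the array's own median on 4 or more arrays were tested.

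All 38 arrays entered 1 model of 6 group means in limma 3.58.1 (R 4.3.3, 32 residual degrees of freedom), with moderated tests adjusted by Benjamini-Hochberg over 29004 probe sets. The number of mice limits precision. Contrasts were the unweighted mean of 5 cohorts against normal, each cohort against normal and against the other 4, 10 pairs, and an F test among cohorts. In gene lists the tested probe set with the highest mean stood for its gene. Correlations used 100000 permutations within cohorts (Python 3.11.15, scipy 1.17.1). Members, gene lists and naming rules were chosen with earlier results of these data known. Each member probe set is described, all genes of lists of at most 10 could be named, and of longer lists up to 4 called in each direction by size of the difference, with the 3 most alike genes per member by Pearson r. The sets of 16 and 22 arrays came from probe sets that divide the arrays sharply. Of these there were 111, of which 4 gave exactly this division and 9 came within 2 arrays of it. The next most frequent division came from 3 probe sets. Alternatives covered scaling, pseudocount, filter, choice of probe set, array weights, array sets, leaving out 5 arrays with bright hybridisation controls, and leaving out each array in turn. The fit was also run on simulated data, drawn independently for each probe set and array. These held no array sets and no difference in RNA quality, so they do not bear on those features, and no result here rests on them.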

Additional observations from a re-analysis of the deposited data

Results flagged for a closer look

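In 78 groups of 4 to 9 mice, 1 for each probe set and group, 4 held a mouse far from the rest of its group, and chance gives about 1 in 20. On Tcf3 1427764_a_at MLL-ENL_701 read 101.1 with the next mouse at 275.8, a gap of 0.626 of the group's log2 range, and MLL-GAS7_407 read 153.4 with the next at 294.8 (0.758). On Id2, MLL-AF1p_801 was low on 1435176_a_at (604.1, next 1468.7, gap 0.551) and MLL-AF1p_808 high on 1453596_at (1113.9, next 550.6, gap 0.553).

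Effects that differed between cohorts by a test of the difference were the F tests of Id1 (limma adjusted p = 0.04) and Id2 1435176_a_at (0.049), and 4 pair differences. These were MLL-GAS7 against MLL-ENL for Id2 on 1435176_a_at (1.94) and 1422537_a_at (1.5) and for Id1 (-1.18), and MLL-AF1p against MLL-ENL for Tcf12 1427670_a_at (-0.497), all log2 differences.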

How the results depend on the processing

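Alternatives were 11 settings fixed with the design, 38 fits without 1 array each, and the set of 16 arrays alone, which was added after seeing the data and holds no normal sample. No difference that was called changed sign. Id3 and the 2 brighter Tcf3 probe sets kept their calls against normal, over all cohorts and in each cohort, wherever a fit gave a value. Over all cohorts against normal, the log2 difference ran from -2.42 to -1.48 for Id3. For Tcf3 1426297_at it ran from -1.04 to -0.88 without 1 array and was -0.81 with array set as a term. The mean of the 3 Tcf3 probe sets differed by -1.41.

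Counts of members called moved more. Against normal, MLL-GAS7 called 3 in place of 5 without the 5 arrays with brightest controls. The F test called 1 in place of 2 for values as deposited, quantile normalization, a pseudocount of 16 and without those 5 arrays, and 0 with no filter or within either array set. For each cohort against the other 4, the 2 calls became 4 as deposited or with quantile normalization, 1 with a pseudocount of 16, 5 with 100, 6 with array weights, and 0 with no filter, within either set or without those 5 arrays. The 4 calls between pairs became 9 with array weights, 2 within the set of 22 and 0 within the set of 16. Leaving out 1 array gave 0 to 2 calls by the F test, 0 to 5 against the other 4, 3 to 6 between pairs and 4 to 6 for all cohorts against normal. The share of calls in the higher direction among all probe sets called between leukaemia and normal was 67.3%, against 53.6% as deposited and 59.1% with quantile normalization. The causes of these changes were not tested.

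Differences that were not called changed sign in these cases. Tcf12 1427670_a_at in leukaemia against normal was 0.0021 with a pseudocount of 16 and -0.12 to 0.069 without 1 array. Tcf12 1439209_at was 0.056 with array set as a term, 0.10 within the set of 22 and -0.22 to 0.049 without 1 array. Id2 1435176_a_at in MLL-AF9 against normal was -0.033 as deposited, -0.063 with quantile normalization, -0.045 with array weights and -0.14 to 0.36 without 1 array. Id2 1422537_a_at in MLL-ENL against normal was 0.074 with array weights, 0.084 without the 5 arrays and -0.17 to 0.15 without 1 array. Id1 in MLL-GAS7 against normal was -0.043 to 0.21 without 1 array. No paired analysis was possible because no 2 groups share more than 1 number in their labels.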
